A study of Danio rerio with 6 samples.

Results

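The long arm of zebrafish chromosome 4 was described here as every gene of the deposited count table that lies on chromosome 4 and starts at or above 27 Mb in the genome build GRCz10. This gave 1071 of the 25190 genes counted, against 562 genes on the rest of chromosome 4 and 23557 genes on the other numbered chromosomes. The genes were chosen by position alone. RNA-Seq was carried out on retinas dissected at 5 dpf from wild-type (WT) larvae and from larvae homozygous for the w59 allele of pde6c, the cone phosphodiesterase gene. There were 3 WT samples (WR1, WR2 and WR3) and 3 pde6c samples (PR1, PR2 and PR3). Each was a pool of 3 retinas from 3 larvae. Mutant and WT larvae were bred from separate crosses, of carriers and of non-carriers in 1 family, so the genotypes did not share a clutch. All larvae were dark-adapted before dissection and had been screened by their optokinetic response. The RNA was amplified as cDNA before sequencing.

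The long arm is known for its unusual make-up. It is rich in repeats and heterochromatin, replicates late in S phase, and holds large arrays of near-identical protein-coding genes. Most of these encode zinc finger proteins, which bind DNA, or NOD-like receptors (NLRs), which sense microbial products inside cells, and both families have expanded there by local duplication. Few single-copy genes with counterparts in other vertebrates are known from most of its length. A read from one copy of such a family can align equally well to another copy, and reads of this kind were left out of the counts analysed here.

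Between 18757605 and 22510222 fragments were counted on genes per sample, so that 3 counts, taken as the lowest level the depth can show, corresponded to 0.133 to 0.160 CPM, the unit of counts after scaling every sample to the same total. The targeted gene, listed as PDE6C, had 0 counts in all 6 samples because its span lies wholly inside that of another gene, and fragments on more than 1 gene were not counted. Its FPKM (fragments per kilobase of transcript, scaled to the mapped fragments and deposited as a second table) were 445, 655 and 520 in the WT samples and 60.1, 140 and 84.8 in the pde6c samples, so that the groups did not overlap. The genotypes follow the names of the columns, which a summary table in the study's text lists the other way round for this unit. Of 8 cone markers listed, 5 were matched by symbol. They had summed levels of 14289 to 15831 CPM in WT and 5467 to 7491 CPM in pde6c, with PDE6H at 0 counts throughout. The cone opsin gene listed as OPN1SW, described below, was in the table but not among the symbols matched. All 4 matched cone markers that could be tested passed the test as lower in pde6c. So did the 2 rod markers matched of 5 listed. A tested gene named CNGA1, a symbol on the rod list, was not matched and had a log2 fold change of -0.42. The only bipolar marker that passed was cabp5a, as higher. In counts of whole retinas, fewer cells of a type and less RNA per cell cannot be told apart. The paper cites earlier work in which many cones had degenerated at this age, while the number of rods was still like that in WT. None of the amacrine, horizontal, ganglion, Müller glia, microglia, muscle or germ line markers found passed the test. The matched lens (3 of 4 listed), blood (2 of 4), germ line (4 of 4) and pigment epithelium (2 of 4) markers each summed to at most 4.17 CPM in a sample. The matched muscle markers (2 of 4) summed to 2.04 to 11.8 CPM. A tested gene named TYRP1 was not matched to the pigment epithelium symbol tyrp1b. It had a mean of 8.53 CPM, above the sums of the 2 matched pigment epithelium markers.

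The long-arm genes were, as a set, counted less often and at lower levels than other genes, compared without regard to gene names. Of the 1071 genes, 710 had a count in at least 1 sample, 505 had a count in all 6 samples, and 361 had none. The share of the arm's genes with a count was 60.8%, 55.6% and 59.0% in WR1, WR2 and WR3 and 59.6%, 55.9% and 57.0% in PR1, PR2 and PR3. Every sample was lower on the arm than on the rest of chromosome 4, where the shares lay between 78.3% and 81.5%, and than on the other chromosomes, where they lay between 76.7% and 80.5%. The mean was 58.0% ± 2.12 (SD, n = 6) on the arm, 79.7% ± 1.38 on the rest of chromosome 4 and 78.3% ± 1.5 on the other chromosomes. The within-sample differences were -21.7 and -20.3 percentage points (two-sided exact sign-flip permutation test over the 6 samples, p = 0.031, the smallest that 6 samples allow, adjusted p = 0.031 over 6 such comparisons). This test takes the samples and not the genes as replicates. Among the 24 other numbered chromosomes, the share of genes with a count in at least 1 sample lay between 74.5% on chromosome 22 and 90.9% on chromosome 25, and on the arm it was 66.3%.

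Many genes without a count were covered by another gene. On the long arm, 487 genes (45.5%) overlapped the span of another gene of the table and 290 (27.1%) were covered completely. The shares completely covered were 11.03% on the rest of chromosome 4 and 8.60% on the other chromosomes. Fragments lying on more than 1 gene were left out of the counts. Of the 361 uncounted long-arm genes, 289 (80.1%) were covered completely, against 62 of 79 (78.5%) on the rest of chromosome 4 and 2023 of 3491 (57.9%) on the other chromosomes. An FPKM above 0 was listed in the other table for 255 of the 361, and for 57 of the 79 and 1653 of the 3491 uncounted genes elsewhere. Among the 584 long-arm genes that overlapped no other gene, 534 (91.4%) had a count, against 96.7% of such genes on the rest of chromosome 4 and 93.2% on the other chromosomes. With these genes alone, an alternative chosen after seeing the data, the within-sample differences in the share counted were -10.7 and -6.79 percentage points (exact sign-flip permutation test, p = 0.031). Examples of uncounted named genes are terfa, which encodes a telomere-binding protein and overlaps 3 other genes, and ARFGAP3, which encodes a GTPase-activating protein for Arf1. They had a mean FPKM of 2.11 for terfa and 0.71 for ARFGAP3.

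The level per transcript length was near 0 for most long-arm genes. The median FPKM over the 1071 genes was 0.0675, 0 and 0.0560 in WR1, WR2 and WR3, and 0.0550, 0.0293 and 0.0298 in PR1, PR2 and PR3. The medians on the rest of chromosome 4 were 3.55 to 4.86 FPKM and those on the other chromosomes 2.73 to 2.91 FPKM, so that no sample on the arm came near them. The mean of the sample medians was 0.0396 ± 0.0247 FPKM (SD, n = 6) on the arm, and the within-sample differences were -4.13 and -2.80 FPKM (exact sign-flip permutation test, p = 0.031, adjusted p = 0.031). In all, 171 long-arm genes (16.0%) had a mean FPKM of at least 1, against 67.3% on the rest of chromosome 4 and 61.8% on the other chromosomes. The lowest median of the mean FPKM among the other 24 chromosomes was 1.17, on chromosome 22. Among genes with an FPKM of at least 1 in at least 3 samples, the long-arm median was again lower, with differences of -7.51 and -7.52 FPKM (exact sign-flip permutation test, p = 0.031).

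**Figure D1:**
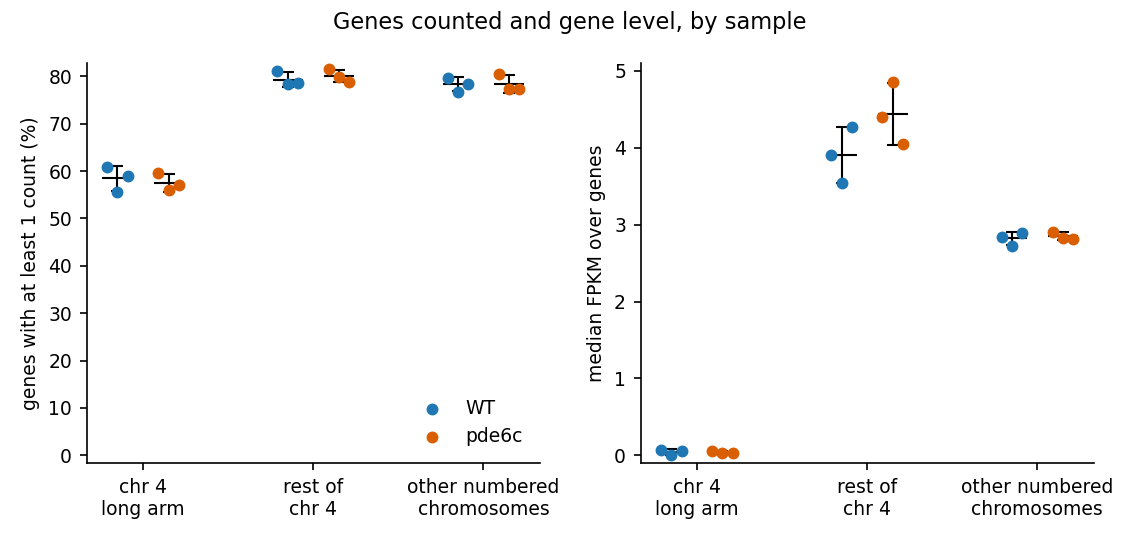
Share of genes with at least 1 count (left, percent of genes) and median FPKM over genes (right), for genes of the chromosome 4 long arm, the rest of chromosome 4 and the other numbered chromosomes. Each point is 1 sample (blue, WT; orange, pde6c), and bars show the mean and SD of 3 samples; the long-arm samples lie between 55.6% and 60.8% on the left and at or below 0.0675 FPKM on the right, below all samples of the other gene groups.

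The 2 deposited measures differed for a group of long-arm genes. Of 104 long-arm genes with a mean of at least 5 CPM in the counts, 31 (29.8%) had a mean FPKM under 1, against 3 of 281 genes (1.07%) on the rest of chromosome 4 and 393 of 11531 (3.41%) on the other chromosomes. Sample by sample, with CPM from total counts alone, 28.3% to 38.2% of the arm's genes at 5 CPM or more had an FPKM under 1. The mean was 31.7% ± 3.43 (SD, n = 6), against 2.31% ± 1.12 and 4.68% ± 0.636 in the other gene groups (exact sign-flip permutation test, p = 0.031 for both, adjusted p = 0.031). The counts were taken over whole gene spans, introns included, whereas FPKM refers to transcripts. The 31 genes had a median span of 138139 bases and the arm's other genes at this level 27539 bases, and whether span had a part in the difference was not tested.

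Among these 31 genes, si:dkey-3h2.4 had the most counts. It spans 295086 bases (chr4:67990652-68285737, plus strand), overlaps 8 other genes and is known only by a clone name. It had 556, 386 and 507 counts in WT and 772, 479 and 613 in pde6c, while its FPKM ran from 0 to 0.224. ENSDARG00000096216, which has no symbol, spans 599599 bases (chr4:44507344-45106942) and overlaps 13 other genes. It had 329 to 612 counts in WT and 401 to 662 in pde6c, with an FPKM of 0.0595 to 0.524. The same held for a gene that overlaps no other, si:dkey-29j8.2 (chr4:42767875-42861428), with 198 to 490 counts and an FPKM of at most 0.0512. In the count data, 7 long-arm genes spanned at least 300 kb, 6 of them were tested, their log2 fold changes lay between -0.29 and 0.22, and none passed the test. Their highest mean FPKM was 0.81.

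Levels differed between the ends and the middle of the arm. The genes that start below 30 Mb or at or above 70 Mb, 267 in number, took 78.1% of the arm's counted fragments, and 132 of them (49.4%) had a mean FPKM of at least 1. The 804 genes that start between 30 and 70 Mb took 21.9% of the fragments, and 39 of them (4.85%) had a mean FPKM of at least 1. These limits were drawn after seeing the windows, so no test was made. The share of genes with a count in at least 1 sample was 70.0% at the ends and 65.0% in the middle, and the share covered completely by another gene was 26.6% and 27.2%. In 5-Mb windows, the median of the genes' mean FPKM was 1.14 between 27 and 30 Mb, 0.0421 to 0.0890 in the 8 windows from 30 to 70 Mb, 1.41 between 70 and 75 Mb and 0.367 beyond 75 Mb. The window from 70 to 75 Mb held 145 genes and 44.2% of the arm's fragments.

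**Figure D2:**
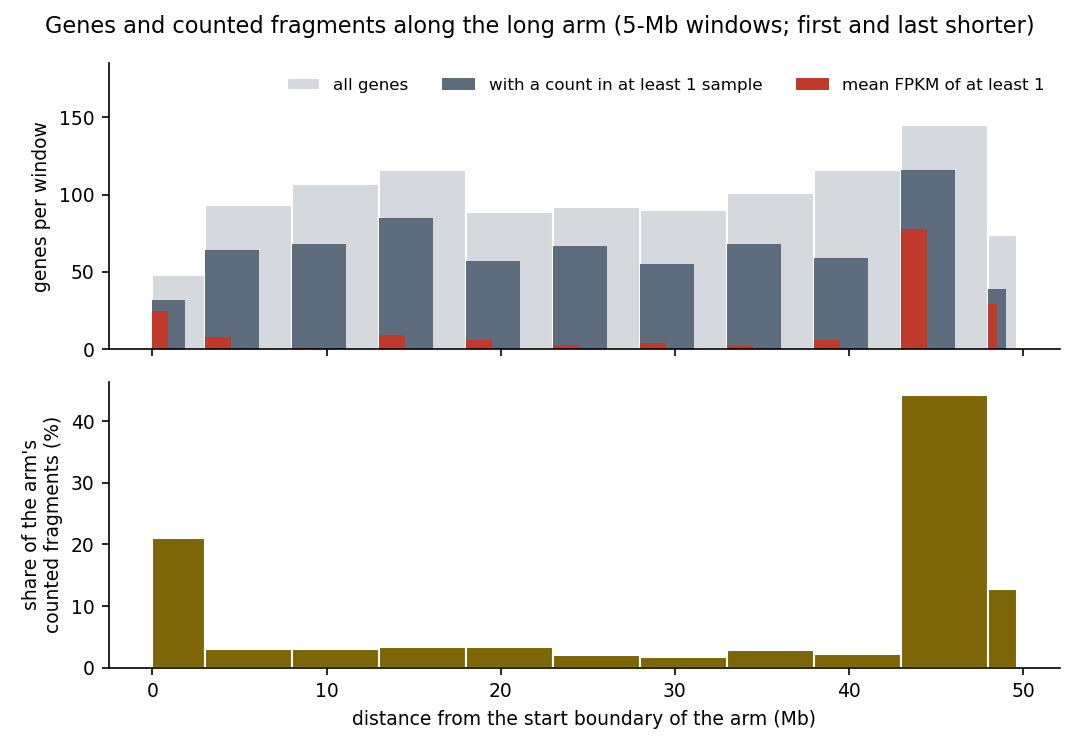
Genes (top) and share of the arm's counted fragments in percent (bottom) in 5-Mb windows along the long arm, against the distance in Mb from the 27-Mb boundary; in the top panel, bars of decreasing width stand for all genes, genes with a count in at least 1 sample, and genes with a mean FPKM of at least 1. Genes with a count occur in every window, while 132 of the 171 genes with a mean FPKM of at least 1 and 78.1% of the fragments lie in the first window and the last 2 windows.

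The names of the genes followed the same division. Of the 1071 genes, 472 are named only by a clone, 429 have no symbol, 102 are zinc finger genes named znf and 68 carry another name. Of the 102 znf genes, 94 lie in the middle of the arm. Of the 68 others, 62 lie at the ends, and all 34 of them with a mean FPKM of at least 1 are among those 62.

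The zinc finger genes of the arm were detected at lower levels than those elsewhere. Of the 102 long-arm znf genes, 77 (75.5%) had a count in at least 1 sample, close to the 120 of 161 (74.5%) on the other chromosomes. Their median FPKM per sample lay between 0 and 0.0987, whereas the median of the 161 znf genes on the other chromosomes lay between 5.55 and 6.99, with a mean within-sample difference of -6.19 FPKM (two-sided exact sign-flip permutation test over 6 samples, p = 0.031, the smallest possible, computed apart from the 6 comparisons above). A mean FPKM of at least 1 was reached by 10 of the 102 (9.80%) and by 145 of the 161 (90.1%). The shares of znf genes that overlap another gene were 38.2% and 39.8%. As the genes were grouped by symbol, zinc finger genes named only by a clone or without a symbol are not among these genes. Fragments that align to several near-identical copies were left out of the counts. How the FPKM treated such fragments is not given in the sources used here.

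The 4 long-arm znf genes with a mean of at least 5 CPM were znf1059, znf1142, znf1009 and znf1070. znf1059 (chr4:28860207-29154519) had 449, 288 and 355 counts in WT and 504, 548 and 349 in pde6c, with FPKM of 0.891 to 8.73, and the groups overlapped. znf1142 (chr4:44457514-44475284) overlaps no other gene and had 622, 118 and 453 counts in WT and 331, 352 and 217 in pde6c, so that WR1 and WR2 were the highest and the lowest of the 6 samples. znf1009 (chr4:75477584-75603963) is covered by other genes over 80.6% of its span and had 169 to 223 counts in WT and 197 to 350 in pde6c. znf1070 (chr4:64539369-64766951) had 157 to 205 counts in WT and 245 to 279 in pde6c, while its FPKM did not exceed 0.0811. Its counts did not overlap as deposited, but after normalization the lowest pde6c sample (10.5 CPM) was below the highest WT sample (11.5 CPM). The log2 fold changes of the 4 genes were 0.27 ± 0.28 (SE), -0.44 ± 0.41, 0.48 ± 0.36 and 0.36 ± 0.34, with adjusted p from 0.70 to 0.80 in edgeR. Of the 49 long-arm znf genes tested, 0 passed the test, against 3.69% of all genes tested, and 0 had an unadjusted p under 0.05, against 12%. Of the 112 znf genes tested on the other chromosomes, 2 passed the test and 4 had an unadjusted p under 0.05.

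Symbols identified 2 NLR genes on the arm. nlrp12l2 (chr4:37113146-37155474) had 19, 14 and 34 counts in WT and 33, 23 and 12 in pde6c, and its log2 fold change was -0.08 ± 0.81 (SE). nlrc3l2 (chr4:33162461-33177999) had at most 5 counts in a sample and was not tested. Both were far below the 1 FPKM that 7 of the 16 NLR genes by symbol on the other chromosomes reached on average. Genes of NLR signalling known from other tissues were measured alongside. They included the adaptor pycard, the kinase RIPK2, the transcription factor subunits nfkb1 and RELA, and also NLRs themselves, such as NOD1 and NOD2. Of the 13 found of a list of 14, 10 were tested and 0 passed the test in either direction, against 3.69% of all genes tested, with a median log2 fold change of 0.45, against 0.00 over all genes tested. The lowest adjusted p of the list was that of tnfa, a pro-inflammatory cytokine, which had 21, 10 and 32 counts in WT and 3, 2 and 0 in pde6c. The groups did not overlap, and the log2 fold change of -3.65 ± 1.12 (SE) did not pass the test (adjusted p = 0.12 in edgeR). il1b, another pro-inflammatory cytokine, went the other way, with 15, 9 and 17 counts in WT and 35, 45 and 64 in pde6c. Its log2 fold change was 1.74 ± 0.76 (SE, adjusted p = 0.36 in edgeR). nfkb1 had a mean of 6.98 CPM in WT and 12.8 CPM in pde6c (log2 fold change 0.87, adjusted p = 0.33 in edgeR). RIPK2 had a mean of 6.98 CPM in WT and 12.6 CPM in pde6c and did not pass either (log2 fold change 0.85, adjusted p = 0.44 in edgeR).

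Genes whose products write, read or maintain heterochromatin were also measured, as much of the arm is heterochromatin. Of the 14 found of a list of 24, all 14 were tested and 0 passed the test, against 3.69% of all genes tested, with a median log2 fold change of -0.09. ATRX, a chromatin remodeller of repeats, had 284 CPM in WT and 293 CPM in pde6c, and CBX5, a heterochromatin protein that reads histone H3 methylation, had 77.7 and 74.4 CPM. The lowest adjusted p was that of cbx3b, another reader, at 27.2 CPM in WT and 41.4 CPM in pde6c (log2 fold change 0.61, adjusted p = 0.22 in edgeR). Both lists were matched by symbol.

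The 8 long-arm genes with the highest mean CPM held 47.9% of the arm's fragments. ENSDARG00000087887, a gene without a symbol (chr4:73244029-73485212, minus strand, 241184 bases, no overlap with another gene), alone held 19.7%. It had 587, 798 and 779 CPM in WT and 589, 758 and 789 CPM in pde6c, with 1 lower and 2 higher samples in each genotype. Its level was 721 ± 117 CPM in WT and 712 ± 107 CPM in pde6c (SD, n = 3 each), and its log2 fold change was -0.02 with a 95% interval of -0.33 to 0.29.

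The next, si:dkey-61p9.9 (chr4:76245352-76361603, plus strand), held 9.84% of the arm's fragments. It had 13761 counts in WR1 and 5383 and 5013 in WR2 and WR3, against 8115, 6996 and 5520 in PR1, PR2 and PR3. WR1 stood above all the other samples, and the other WT samples lay within or below the pde6c range. Its FPKM went the other way in WR1, at 0.0894 against 0.240 and 2.84 in WR2 and WR3 and 1.53 to 2.74 in pde6c. The fold change was within the spread between replicates (log2 -0.29 ± 0.25, SE; adjusted p = 0.75 in edgeR).

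GRAMD4, TBC1D22A, ZBED4, TAFA5 and BRD1, also among the 8 highest, carry symbols of genes known from other vertebrates and lie between 27 and 29 Mb. ZBED4 encodes a zinc finger protein described in cones of the human retina. It had 92.7, 108 and 115 CPM in WT and 108, 152 and 100 CPM in pde6c, so that the groups overlapped (log2 fold change 0.19, 95% interval -0.17 to 0.55). TAFA5, a secreted peptide of the nervous system, had 75.4 ± 2.95 CPM in WT and 82.6 ± 6.34 CPM in pde6c (SD, n = 3 each). BRD1, a bromodomain protein of histone acetyltransferase complexes, had 72.4 ± 5.49 and 74.97 ± 9.75 CPM. GRAMD4 had 187 ± 18.5 and 163 ± 27.7 CPM, and TBC1D22A, named for a domain of Rab GTPase-activating proteins, had 133 ± 37.3 and 124 ± 5.76 CPM. The 95% intervals of these 5 genes, ENSDARG00000087887 and si:dkey-61p9.9 lay between -0.78 and 0.55 on the log2 scale, so that a 2-fold change in either direction lay outside them.

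**Figure D3:**
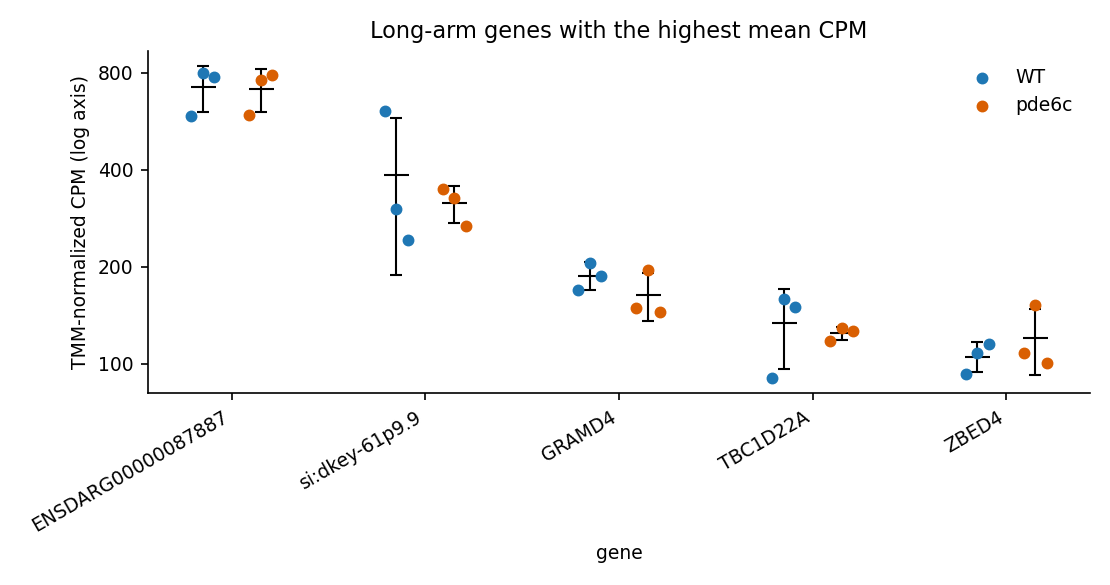
TMM-normalized CPM (log axis) of the 5 long-arm genes with the highest mean CPM; each point is 1 sample (blue, WT; orange, pde6c), and bars show the mean and SD of 3 samples. The WT and pde6c samples of every gene overlap, and WR1 of si:dkey-61p9.9 stands at 608 CPM against 241 to 348 CPM in the other 5 samples.

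The 4 long-arm genes with the highest mean FPKM were ENSDARG00000103204, cct2, ENSDARG00000105685 and ZBED4. ENSDARG00000103204 spans 168 bases (chr4:53831527-53831694). It was listed at 0 FPKM in 3 samples and at 3033, 262 and 657 FPKM in WR3, PR1 and PR2, whereas its counts were 23, 4 and 4 in WT and 22, 0 and 2 in pde6c. In this gene, the FPKM was highest in a sample with 4 counts. The gene listed as cct2 (1386 bases, chr4:76623605-76624990), named after a subunit of a cytosolic chaperonin, is covered by another gene over 57.4% of its span. It had FPKM of 171, 129 and 306 in WT and 104, 145 and 383 in pde6c, with 26, 7 and 119 counts in WT and 25 to 27 in pde6c. ENSDARG00000105685 (chr4:76087151-76121660) had 118 to 208 FPKM in WT and 52.2 to 119 FPKM in pde6c, while its counts were 170 to 232 in WT and 167 to 331 in pde6c, so that the mean moved in opposite directions in the 2 units. The fourth was ZBED4, at 29.3 to 43.2 FPKM in WT and 35.2 to 62.1 FPKM in pde6c.

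Further named genes of the arm with counterparts in other vertebrates, chosen after their values were seen, did not differ between the genotypes beyond the error of the test. CERK, a ceramide kinase, had 1197 to 1488 counts in WT and 1233 to 1355 in pde6c (log2 fold change -0.19 ± 0.18, SE). KCNA1, a voltage-gated potassium channel of neurons, had 957, 338 and 454 counts in WT and 591, 513 and 374 in pde6c (-0.30 ± 0.31). RAB3IP, an activator of Rab8 in the growth of cilia, had 990 to 1373 counts in WT and 747 to 1254 in pde6c (-0.19 ± 0.22). trim24, a bromodomain protein, had 875 to 1405 and 1234 to 1510 counts (0.14 ± 0.19). NUP50, a protein of the nuclear pore, had 477 to 551 counts in WT and 616 to 729 in pde6c (0.31 ± 0.23, adjusted p = 0.68 in edgeR). None of these 5 genes passed the test.

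Genes of immune function at the far end included a pair with a wide spread between replicates. mhc2d4b, an MHC class II gene, had 33, 39 and 27 counts in WT and 35, 223 and 31 in pde6c, so that PR2 stood above the other 5 samples (log2 fold change 1.44 ± 0.76, SE; adjusted p = 0.50 in edgeR). PSMB10, an immunoproteasome subunit, had 54, 103 and 10 counts in WT and 42, 1 and 6 in pde6c (-1.99 ± 1.06, adjusted p = 0.50). These 2 genes, too, were chosen after their values were seen. Of 13 ms4a genes, which encode small membrane proteins, 6 had a count and 3 were tested, and of 6 slco genes, which encode organic anion transporters, 5 had a count and 1 was tested. crestin, a transcript known from zebrafish neural crest, had 2 to 10 counts in WT and 4 to 21 in pde6c.

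The genes nearest the 27-Mb boundary were measured on both sides of it. The first genes inside it were CRELD2, which encodes a protein of the endoplasmic reticulum, and ALG12, a mannosyltransferase. CRELD2 had 16.2, 15.6 and 16.7 CPM in WT and 20.8, 18.1 and 34.6 CPM in pde6c, and ALG12 had 8.33 to 18.2 CPM in WT and 10.2 to 13.8 CPM in pde6c. The last genes outside it were iqsec3a and slc6a1l, named as a neurotransmitter transporter. Their levels were 720 ± 91.2 CPM in WT and 726 ± 66.5 CPM in pde6c for iqsec3a, and 288 ± 35.9 and 285 ± 42.9 CPM for slc6a1l (SD, n = 3 each). Per transcript length, the mean levels were 39.4 and 59.9 FPKM for the pair outside and 9.85 and 9.0 FPKM for the pair inside. ZBED4 (chr4:27123111-27140409) and BRD1 (chr4:27141124-27160584), also inside, had mean levels of 41.0 and 22.9 FPKM. CRELD2 did not overlap between genotypes, but its log2 fold change of 0.60 ± 0.30 (SE) did not pass the test (unadjusted p = 0.0596, adjusted p = 0.45 in edgeR).

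How the arm's share of fragments compared between the genotypes depended on what it was scaled to. As a share of all counted fragments it was 0.368%, 0.349% and 0.361% in WR1, WR2 and WR3 and 0.360%, 0.364% and 0.360% in PR1, PR2 and PR3. The 95% Wilson intervals reached at most 0.00267 percentage points to either side and cover counting error only. In these shares the pde6c samples lay within the WT range, with means of 0.360% ± 0.00955 and 0.361% ± 0.00277 (SD, n = 3 each). The difference was 0.00164 percentage points (two-sided exact permutation test, p = 0.9, adjusted p = 0.9 over 4 comparisons, smallest possible p 0.1). With TMM-scaled library sizes, as used for the CPM, the shares were 0.366%, 0.369% and 0.372% in WT and 0.338%, 0.364% and 0.355% in pde6c. All 3 pde6c samples then lay below all 3 WT samples, with a difference of -0.0165 percentage points (exact permutation test, p = 0.1, the smallest possible). As a share of the fragments of chromosome 4, the arm took 9.22% to 10.003% in WT and 11.02% to 11.2% in pde6c. This was a difference of 1.43 points in the other direction (exact permutation test, p = 0.1). The total of chromosome 4 includes the cone opsin gene OPN1SW, whose counts were lower in pde6c. Without OPN1SW, the rest of chromosome 4 took 2.64% to 2.68% of all counted fragments in WT and 2.72% to 2.75% in pde6c. The arm's share without OPN1SW in the chromosome 4 total was not computed. Without OPN1SW, the rest of chromosome 4 was higher in all 3 pde6c samples than in all 3 WT samples. The arm's share of all counted fragments lay within the WT range in pde6c. The 1.43 points thus hold only for a total that includes OPN1SW, and whether they remain without this gene was not tested. The samples of the genotypes overlapped in the share of the arm's genes with a count (difference -0.934 points, exact permutation test, p = 0.8) or in their median FPKM (difference -0.00312, exact permutation test, p = 0.9).

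On the rest of chromosome 4 the samples of the genotypes did not overlap in the share of all counted fragments, and whether its difference exceeds that of the arm was not tested. Its share of fragments was 3.36% in WT, with an SD of 0.0996 (n = 3), and 2.89% in pde6c, with an SD of 0.00715 (n = 3), (exact permutation test, p = 0.1, the smallest that 3 against 3 samples allow, adjusted p = 0.4 over 4 comparisons). One cone gene lies there. OPN1SW, a cone opsin for short wavelengths, took 18.7% to 22.05% of these fragments in WT and 5.29% to 6.05% in pde6c. Without it the share was 2.64% to 2.68% in WT and 2.72% to 2.75% in pde6c.

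No long-arm gene passed the genotype test with edgeR, while 4 did with DESeq2, the package that the study itself used on its counts. With edgeR, adjusting by Benjamini-Hochberg over the 17242 genes tested in the whole table and calling an adjusted p under 0.1, 0 of the 403 long-arm genes tested were called, against 3.69% of all genes tested. The smallest adjusted p on the arm was 0.119. At an unadjusted p under 0.05 there were 6 long-arm genes (1.49%), of which 1 was higher and 5 were lower in pde6c, against 12% of all genes tested. In 46 long-arm genes the WT and pde6c samples did not overlap after normalization (11.4%; 20 higher and 26 lower), against 16.9% of all genes tested. On the rest of chromosome 4, where also 403 genes were tested, 17 were called, and every other numbered chromosome had at least 15 calls and at least 2.40% of its genes tested called. DESeq2 called 4 of 494 long-arm genes to which it gave an adjusted p, against 5.88% of all such genes, and limma on log2(FPKM + 1) called 0 of 164, against 1.22% of all genes it tested, with 11 long-arm genes (6.71%) at an unadjusted p under 0.05, against 1485 of 14879 genes (9.98%). DESeq2 gave no adjusted p to 216 further long-arm genes with a count. With edgeR, 1 long-arm gene was called with at least 10 counts required in every sample, and 2 were called without PR1.

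Most of the arm's genes tested were low, and on the other chromosomes low genes were called less often than high ones. Of the 403 genes, 98 had a mean under 1 CPM, 201 had 1 to 5 CPM, 83 had 5 to 20 CPM and 21 had 20 CPM or more. On the other chromosomes the shares called in these classes were 0.601%, 1.20%, 2.71% and 6.28%. At the rates of the other chromosomes for genes of the same CPM classes, 6.57 of the 403 genes would have been called, 32.4 would have had an unadjusted p under 0.05 and 52.8 would not have overlapped, against 0, 6 and 46 observed. These rates are a description of the levels and not a test. In the class of 5 to 20 CPM, 4 of 83 long-arm genes (4.82%) had an unadjusted p under 0.05, against 11.1% of the genes of that class on the other chromosomes, and among the 21 genes at 20 CPM or more there were 0, against 16.7%.

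The precision differed in the same way between high and low genes. A change of more than 2-fold lay outside the approximate 95% interval for 19 of the 21 long-arm genes at 20 CPM or more and 33 of the 83 at 5 to 20 CPM. It did so for 1 of the 201 at 1 to 5 CPM and for 0 of the 98 below. In all, the interval excluded such a change for 53 of the 403 long-arm genes (13.2%) and for 7877 of 16436 genes (47.9%) on the other chromosomes. The median log2 fold change was -0.07 on the arm, with quartiles of -0.46 and 0.34, and 0.00 over all genes tested. There were 187 long-arm genes above 0 and 216 below.

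**Figure D4:**
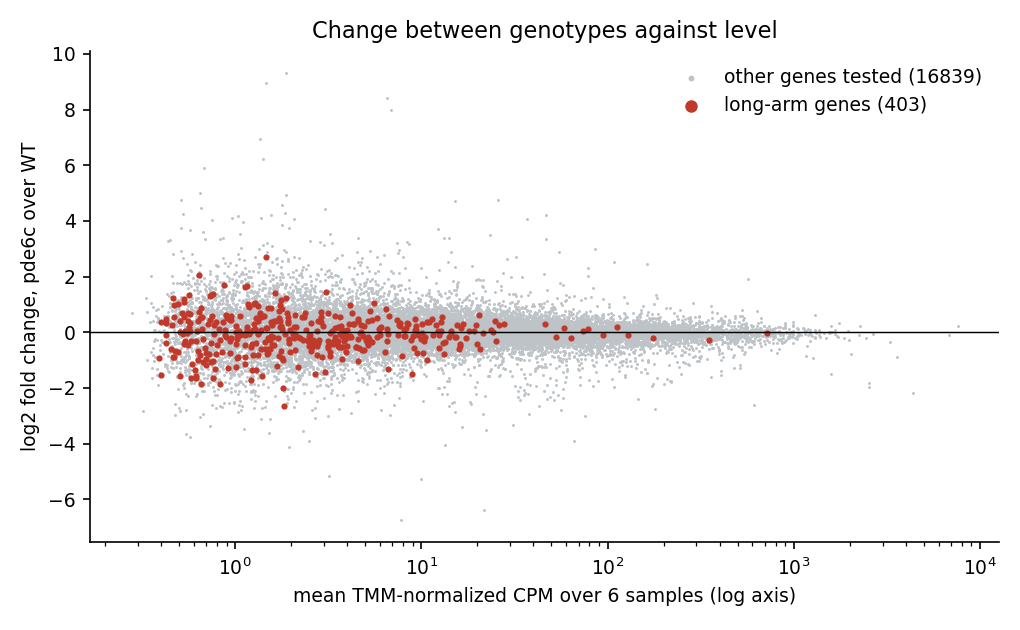
Log2 fold change of pde6c over WT from edgeR against the mean TMM-normalized CPM over 6 samples (log axis), for the 403 long-arm genes tested (red) and the other genes tested (grey); each point is 1 gene. Most long-arm genes lie below 5 CPM, where all genes scatter widely, and the 21 at 20 CPM or more lie close to 0.

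The 6 long-arm genes with an unadjusted p under 0.05 are given as the nearest to the threshold. si:dkey-238o14.3 (chr4:61353622-61392967, no overlap with another gene) had 207, 168 and 432 counts in WT and 162, 60 and 88 in pde6c. Normalized, its 3 pde6c samples (2.81 to 6.95 CPM) lay below its 3 WT samples (9.15 to 20.8 CPM), with a log2 fold change of -1.49 ± 0.46 (SE, adjusted p = 0.119 in edgeR). Its FPKM overlapped, at 0.528 to 1.86 in WT and 0.0621 to 1.56 in pde6c. It passed the threshold with DESeq2 (adjusted p = 0.0256).

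ENSDARG00000101544 (chr4:64229743-64306666) had 223, 166 and 194 counts in WT and 114, 83 and 53 in pde6c. The WT samples were close together, at 9.34 to 9.86 CPM, and the pde6c samples lay at 2.58 to 4.89 CPM, with a log2 fold change of -1.33 ± 0.43 (SE, adjusted p = 0.14 in edgeR and 0.0257 in DESeq2). Other genes cover 18.6% of its span. Its FPKM overlapped, at 0.0498 to 0.770 in WT and 0.0314 to 0.658 in pde6c. si:ch73-266f23.3 (chr4:71993750-72008540) had 228 to 369 counts in WT and 93 to 235 in pde6c (-0.99 ± 0.41). ENSDARG00000105778 (chr4:72628376-72664236) had 259 to 487 counts in WT and 170 to 237 in pde6c (-0.79 ± 0.35). In the last 2 genes, too, the groups did not overlap after normalization, and they did not overlap in FPKM. Neither gene passed the threshold in edgeR or DESeq2.

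The other 2 genes rested on few samples. ENSDARG00000099585 (chr4:35520032-35557230) was the only one of the 6 that was higher in pde6c. It had 6, 12 and 5 counts in WT and 9, 91 and 62 in pde6c, so that PR1 lay within the WT range (log2 fold change 2.69 ± 0.95, SE; adjusted p = 0.20 in edgeR and 0.0894 in DESeq2). Its FPKM overlapped, at 0 to 0.191 in WT and 0 to 0.126 in pde6c, and its mean FPKM was lower in pde6c (0.0556 against 0.0836). ms4a17a.16 (chr4:74912105-74923618), covered by another gene over 88.1% of its span, had 13, 142 and 20 counts in WT and 7, 15 and 10 in pde6c, so that its difference came mostly from WR2 (-2.66 ± 0.97, adjusted p = 0.23 in edgeR and 0.0959 in DESeq2). Its FPKM overlapped between the genotypes, at 0.842 to 2.89 in WT and 0.284 to 4.96 in pde6c. ENSDARG00000099585, ms4a17a.16, si:dkey-238o14.3 and ENSDARG00000101544 were the 4 genes that DESeq2 called.

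For genes of like level, the relative spread that edgeR estimates was close on the arm and elsewhere, whereas the SD of log2 CPM between replicates was lower on the arm for genes at 1 to 5 CPM. Over all genes tested, the median biological coefficient of variation, which is the relative spread between replicates beyond counting error that edgeR estimates, was 0.573 on the arm, 0.3003 on the rest of chromosome 4 and 0.304 on the other chromosomes, with single chromosomes from 0.268 to 0.351. At 1 to 5 CPM it was 0.574, 0.579 and 0.582, where edgeR draws each estimate towards genes of like level. At 1 to 5 CPM the median SD of log2 CPM within a genotype was 0.596 on the arm, 0.801 on the rest of chromosome 4 and 0.782 on the other chromosomes. At 5 to 20 CPM the 3 values were 0.439, 0.448 and 0.453, and at 20 CPM or more 0.254, 0.243 and 0.233. Under 1 CPM, the class of 766 of the 1071 long-arm genes, many of them without a count, the values were 0.235, 0.388 and 0.391. The quartiles of the 3 gene groups overlapped in every class. Genes are not independent replicates of a sample, so these values are a description with no test. In both genotypes the arm's genes at 1 to 5 CPM had lower medians than those of the other chromosomes, with 0.561 in WT against 0.690 and 0.501 in pde6c against 0.707.

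**Figure D5:**
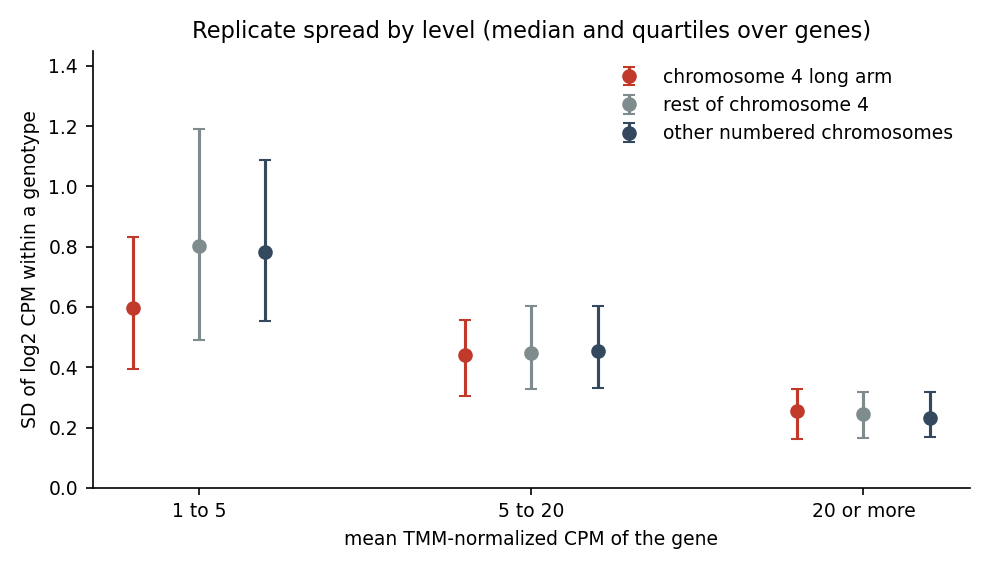
SD of log2 CPM within a genotype against the mean TMM-normalized CPM of the gene in 3 classes; points are medians over genes and bars run from the lower to the upper quartile. The long-arm median is 0.596 at 1 to 5 CPM, below the medians of the other gene groups (0.801 and 0.782), and is close to them in the higher classes.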

How the data were processed

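After trimming (Trimmomatic) and alignment with STAR 2.5.3a to GRCz10 (Ensembl release 89), the authors deposited raw fragment counts per gene from featureCounts 1.5.2. Per the file headers, the counts were made over whole gene spans, unstranded, without fragments on more than 1 gene or with several alignments. A second deposited table holds Cufflinks 2.2.1 FPKM. The Cufflinks options are not given in the sources used here. Column names and sample labels gave the genotypes, and every direction follows them. A summary of nonzero FPKM in the study's text carries these names the other way round. PDE6C FPKM and cone markers are lower in the columns named for pde6c.

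Counts were tested with edgeR 4.0.16 (filterByExpr, TMM, genotype only; R 4.3.3) over the whole table, with an adjusted p under 0.1 as threshold. Each SE is the size of the log2 fold change over the root of its F statistic, and 95% intervals are 1.96 SE to either side. Both are approximate, also for genes that are not low, and the intervals can be narrower than the test implies. For CRELD2, at a mean of 20.3 CPM, the interval of 0.02 to 1.19 excluded 0, while the unadjusted p was 0.0596 in edgeR. CPM are TMM-normalized. Alternatives were DESeq2 1.42.0 and its size factors, limma 3.58.1 on log2(FPKM + 1), other filters, thresholds, boundaries and a block, and leaving out each replicate. The exact tests and gene overlaps were computed in Python 3.11.15. The edgeR test was checked on simulated counts, and the exact tests were checked on small made-up sets of values.

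The members and lists were chosen with earlier results of these data known. Genes named were the 8 highest by mean CPM, the 4 highest by mean FPKM, the 2 on each side of the boundary, those past the threshold, and pde6c. One gene that this rule names is not reported here. All other genes were named after their values were seen. Symbols came from a table of Ensembl identifiers. Zinc finger and NLR genes were grouped by symbol alone, as protein sequences and descriptions were not used here.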

Additional observations from a re-analysis of the deposited data

How the results depend on the processing

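The count of long-arm genes past the threshold, 0 in the test as reported, was 4 with DESeq2, 1 with at least 10 counts in every sample, 1 with the replicate block and 0 to 2 on leaving out a replicate, where 2 came without pde6c replicate 1. si:dkey-238o14.3 was among the calls of each. Deviations from the genotype means correlated weakly between samples of the same replicate number (0.0885, 0.0430 and 0.0354), although all 6 samples correlated best with their own number. The difference in the arm's share of fragments turned to -0.0165 percentage points with TMM-scaled library sizes, where all 3 pde6c samples lay below all 3 WT samples (exact permutation p = 0.1, the smallest possible), and to -0.00191 with the boundary at 30 Mb (exact permutation p = 0.9). As a share of chromosome 4 fragments, it was 1.43 points (exact permutation p = 0.1). That total includes OPN1SW, whose counts were lower in pde6c, and the share was not computed without this gene. In the share of all fragments it ran from -0.00348 (without WT replicate 2) to 0.00598 on leaving out a replicate. Differences from other genes kept their direction on leaving out a replicate, at -22.2 to -21.3 and -20.6 to -20.2 points for the share counted and -4.25 to -3.99 and -2.81 to -2.78 for the median FPKM. With 5 samples the exact test cannot go below p = 0.0625, so the threshold was out of reach by construction. On log2(FPKM + 1), the median SD at 1 to 5 CPM was 0.277 on the arm and 0.488 on the other chromosomes. At 20 CPM or more it was 0.288 on the arm and 0.315 on the other chromosomes, whereas on log2 CPM the arm was the higher (0.254 against 0.233). With the boundary at 25 Mb, the arm's median SD of log2 CPM at 20 CPM or more was 0.280, against 0.233. The causes of these moves were not tested. The other 48 values kept their direction and call. Of the 403 genes tested, 299 lay under 5 CPM. The RNA was amplified before sequencing, and the counting intervals do not cover error from that step. Whether depth or amplification had a part in the number of genes called was not tested.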
